A study of Mus musculus with 6 samples.

Results

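A set of 8 genes linked to the removal of nuclei and organelles were followed: the acid DNases Dnase2b and Dnase2a, the mitochondrial autophagy receptors Bnip3, Bnip3l and Fundc1, the kinases Pink1 and Ulk1, and the receptor Optn. They were chosen by name, and all 8 were found among the 13024 genes of the deposited table. The data are RNA-Seq counts from E14.5 mouse lenses of mixed C57BL/6 and FVB background, with 3 control pools and 3 Gata3 conditional knockout (CKO) pools, each of 10 lenses from 5 embryos. The CKO genotype was Gata3 f/f, Pax6Cre/+, so that exon 4 of Gata3 was lost where Cre acted. The study's text gives the control as Gata3 f/wt in one place and as Gata3 f/f in another, in both cases without Cre, and the labels call it wild type. Only the CKO embryos therefore carried Cre, and an effect of Cre cannot be told apart from one of Gata3 loss. An ocular enhancer of Pax6 drives the Cre, so recombination is not limited to the lens and includes future cornea, and pools of whole lenses mix epithelial and fibre cells with any tissue left attached at dissection.

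A lens fibre cell loses its nucleus, mitochondria and endoplasmic reticulum as it matures, which leaves the centre of the lens free of structures that scatter light. Dnase2b, also called DLAD, is the acid nuclease that degrades the DNA of lens fibre nuclei, whereas Dnase2a is the lysosomal DNase of most other cells, macrophages included. Bnip3, Bnip3l (Nix), Fundc1 and Optn tether mitochondria to the autophagy membrane, Pink1 marks damaged mitochondria for removal and Ulk1 is a kinase that starts autophagy.

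The bases just upstream of 3 of these genes are shown first. Dnase2b and Optn are printed because their CKO values were the lowest of the 8 relative to control, and Bnip3 because its were the highest. Each run is the 250 bases before the RefSeq gene start in GRCm38.p6, 5′ to 3′ in the direction of the gene. Dnase2b covers chr3:146615599-146615848, Optn chr2:5064118-5064367 and Bnip3 chr7:138909507-138909756, all on the minus strand. Capitals mark every match, on either strand, to the GATA motif (AGATAA and AGATAG, and likewise TGATAA and TGATAG) or to the hypoxia response core (ACGTG or GCGTG).
Dnase2b: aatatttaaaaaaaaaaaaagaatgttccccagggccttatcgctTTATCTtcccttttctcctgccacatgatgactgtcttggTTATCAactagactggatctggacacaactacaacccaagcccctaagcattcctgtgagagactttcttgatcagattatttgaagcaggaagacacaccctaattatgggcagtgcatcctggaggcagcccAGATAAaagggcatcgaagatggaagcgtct
Optn: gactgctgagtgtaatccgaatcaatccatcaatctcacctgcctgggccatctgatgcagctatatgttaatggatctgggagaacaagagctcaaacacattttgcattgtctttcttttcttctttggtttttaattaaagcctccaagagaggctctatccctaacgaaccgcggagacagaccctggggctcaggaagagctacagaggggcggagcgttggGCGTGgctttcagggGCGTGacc
Bnip3: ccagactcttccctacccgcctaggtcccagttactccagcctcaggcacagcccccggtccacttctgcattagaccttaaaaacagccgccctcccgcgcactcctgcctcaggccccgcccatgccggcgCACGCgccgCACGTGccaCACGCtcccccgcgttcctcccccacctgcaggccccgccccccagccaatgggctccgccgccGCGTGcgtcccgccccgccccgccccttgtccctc

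The Dnase2b window held 3 matches to the GATA motif. They began at positions -205, -165 and -31 relative to the gene start, the first 2 on the strand opposite to the gene. Of the 7 members with a window in the RefSeq promoter table, Pink1 had 1 match, at -184, and Dnase2a, Bnip3, Fundc1, Ulk1 and Optn had 0. Bnip3l was not matched. The motif was present in 16.4% of the 12935 windows of genes in the deposited table and in 26.5% of all 32851 windows, and 3 or more matches were present in 0.348% and 1.35%. The hypoxia core matched 5 times upstream of Bnip3, where 2 of the matches overlapped on opposite strands. It matched 2 times in Optn, 1 time each in Dnase2a, Pink1 and Ulk1, and 0 times in Dnase2b and Fundc1. Of the windows of table genes, 55.8% had a match to this core and 11.7% had 3 or more. A match gives the letters only, and binding was not measured in these libraries.

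**Figure D1:**
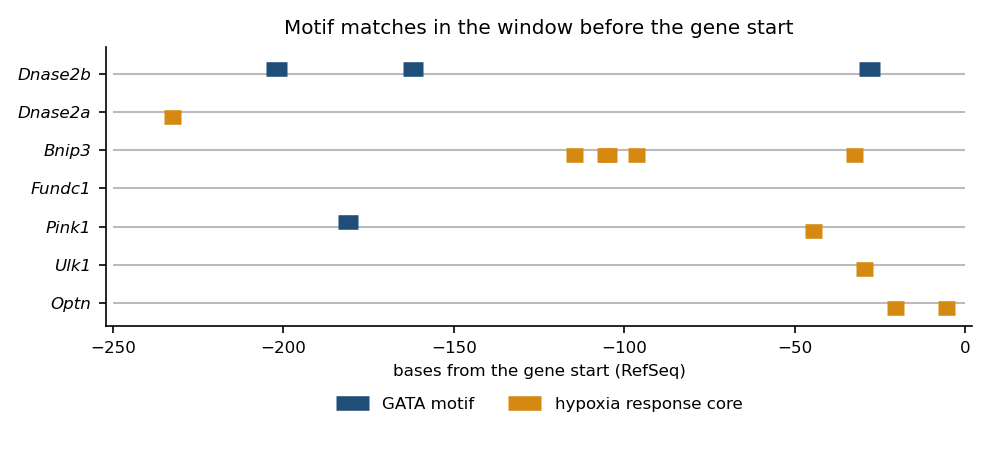
Positions of motif matches in the 250 bases before the gene start for the 7 members with a window. The horizontal axis is the distance in bases from the RefSeq start, blue blocks are GATA motif matches and orange blocks are hypoxia response core matches on either strand. Dnase2b carries 3 GATA matches, Pink1 carries 1, and the 5 matches of Bnip3 are all of the hypoxia core.

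Each library held 15157230 to 18811104 counted fragments. Gata3, the targeted gene, had higher counts over the whole gene in the libraries labelled CKO. Control replicates 1, 2 and 3 held Gata3 at 12.8, 27.2 and 8.71 CPM (counts scaled to equal library size with TMM factors). The libraries labelled CKO held it at 59.0, 54.1 and 46.5 CPM. The counts are per gene and do not show whether exon 4 was present, so every direction given here is that of the libraries labelled CKO. The study examined exon 4 itself by qPCR and in its reads, which were not analysed here. Lens crystallins and fibre genes were abundant in all pools, but control replicate 2 stood apart. Its 12 lens fibre markers summed to 23836 CPM, against 7399 to 11470.1 CPM in the other 5 libraries. The mesenchyme markers were high in control replicate 1 and CKO replicate 2, at 2276 and 4109 CPM, against 257 to 532 CPM in the others, and the retina markers spanned 1680.3 to 3582 CPM in control and 2461 to 3329 CPM in CKO. No batch was named in the labels.

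Dnase2b was the member that differed most between the groups. Control replicates 1, 2 and 3 had 203, 321 and 135 counts of Dnase2b, against 15, 6 and 9 in CKO. After scaling these were 12.9, 22.6 and 7.54 CPM in control and 0.973, 0.305 and 0.468 CPM in CKO. Every CKO value lay below every control value, with the lowest control pool at 7.54 CPM and the highest CKO pool at 0.973 CPM. The mean was 14.3 ± 7.65 CPM (SD, n = 3) in control and 0.582 ± 0.348 CPM (SD, n = 3) in CKO, a ratio of means of 24.6. This was a log2 fold change of -4.64 (standard error, SE, 0.59, 95% interval -6.05 to -3.24), with an unadjusted p of 1.36e-04 and an adjusted p of 0.322 in edgeR's quasi-likelihood test. DESeq2 gave -4.65 with an adjusted p of 1.28e-13. A lower value in a pool of whole lenses can come from fewer fibre cells or from less RNA in each, and these cannot be told apart in bulk RNA.

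The other member that was lower in CKO was Optn, a ubiquitin-binding autophagy receptor of damaged mitochondria. It lies on chromosome 2 (5020642 to 5064051, mm10), 4.79 Mb from Gata3, and the control pools held Optn at 31.9, 52.6 and 22.9 CPM and the CKO pools at 13.4, 13.4 and 10.3 CPM. The groups did not overlap, and control replicate 2 was again the highest library. The mean was 35.8 ± 15.3 CPM (SD, n = 3) in control and 12.4 ± 1.79 CPM (SD, n = 3) in CKO. For Optn this gave a log2 fold change of -1.53 (SE 0.31, 95% interval -2.28 to -0.78), with an unadjusted p of 0.00209 and an adjusted p of 0.582 in edgeR, while DESeq2 gave an adjusted p of 5.34e-04. Without control replicate 2 the log2 fold change was -1.14 for Optn and -4.15 for Dnase2b.

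Across the whole table, edgeR called 0 of 12879 tested genes (0%) at an adjusted p under 0.05. At an unadjusted p under 0.05 it gave 457 genes, and DESeq2 called 56 lower and 29 higher after adjustment. Of the 8 members, Dnase2b and Optn were among the 2.24% of genes that were lower at an unadjusted p under 0.05, and Bnip3 was among the 1.30% that were higher. The same pair was lower without overlap between the groups, as were 4.69% of all genes tested, and Bnip3 and Fundc1 were higher without overlap, as were 3.67%. The pair was also called lower by DESeq2, as were 0.435% of genes. Dnase2b and Optn are among the 72 genes that the study lists as changed in these libraries, so that list is no independent evidence of their direction.

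**Figure D2:**
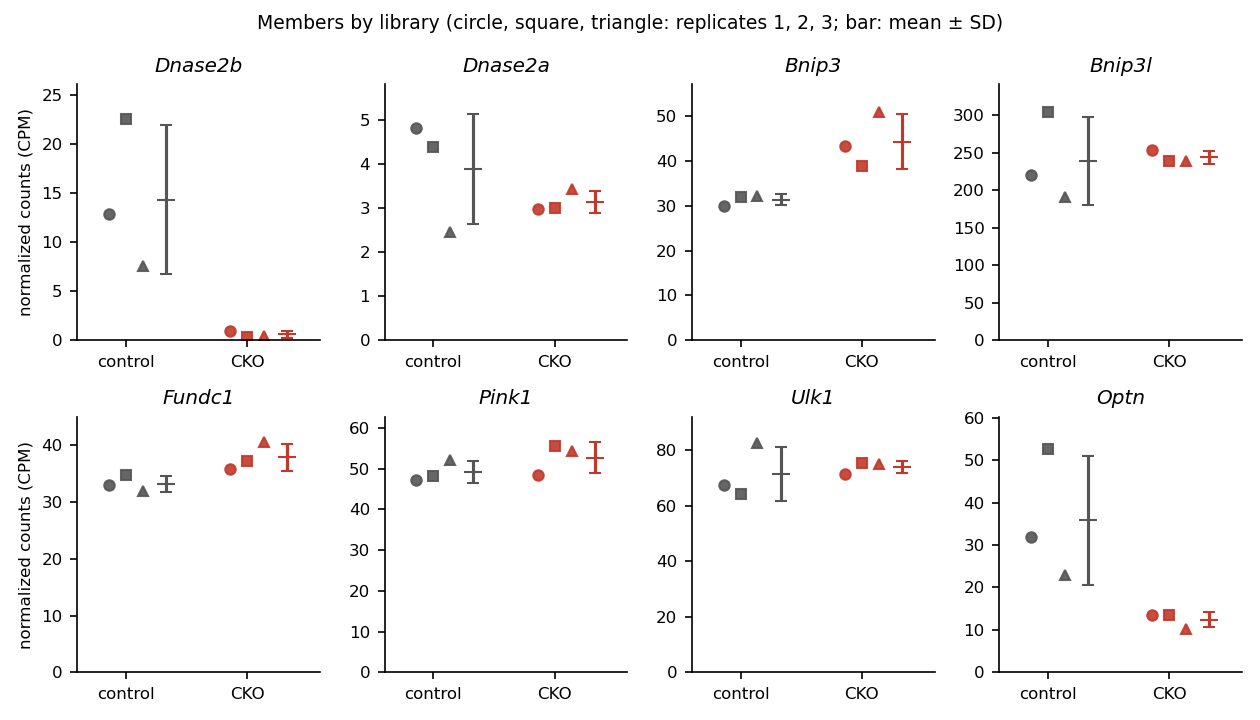
Normalized counts (CPM) of the 8 members in each library, with a separate vertical axis from 0 for each gene. Grey points are control and red points CKO, circle, square and triangle stand for replicates 1, 2 and 3, and the bar beside them is the mean ± SD of 3 pools. The CKO points of Dnase2b (0.305 to 0.973 CPM) and Optn (10.3 to 13.4 CPM) lie below all control points, those of Bnip3 and Fundc1 lie above them, and the other 4 genes overlap.

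Dnase2a, the lysosomal DNase of most tissues, did not share the pattern of its relative. It lies on chromosome 8 (84908560 to 84922915), and its counts in the control pools were 76, 62 and 44, and those in the CKO pools 46, 59 and 66. As CPM these were 4.82, 4.37 and 2.46 in control and 2.98, 3.00 and 3.43 in CKO, so that the lowest library was a control pool and the groups overlapped. The log2 fold change was -0.30 (95% interval -1.02 to 0.42), which includes 0. Exons of the opposite-strand gene Mast1 share 206 of its 2833 exon bases. The macrophage markers, whose cells use Dnase2a, summed to 96.5 to 178 CPM in control and 87.9 to 114 CPM in CKO, with all 12 tested markers at a log2 fold change below 0, and their part in the Dnase2a value was not tested.

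The balance of the acid DNase pair was opposite in the groups. The ratio of Dnase2b to Dnase2a counts was 2.67, 5.18 and 3.07 in the control pools and 0.326, 0.102 and 0.136 in CKO. Dnase2b thus made up 72.8% to 83.8% of the counts of the pair in control and 9.23% to 24.6% in CKO. Every control library held more Dnase2b than Dnase2a, and every CKO library held less, also after division by exon length (2.82 to 5.46 in control and 0.107 to 0.344 in CKO). An exact two-sided permutation test of the ratio gave p = 0.1, the smallest that 3 pools against 3 allow. The ratio does not depend on the library scaling.

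Among the mitochondrial receptors, Bnip3 was higher in CKO. Bnip3 is an outer membrane receptor that is induced by low oxygen, and it lies on chromosome 7 (138890836 to 138909519). Its values were 29.9, 32.0 and 32.2 CPM in control and 43.3, 38.8 and 50.8 CPM in CKO, and the control pools lay close together with all CKO pools above them. The means were 31.4 ± 1.28 CPM (SD, n = 3) and 44.3 ± 6.05 CPM (SD, n = 3). For Bnip3 the fitted log2 fold change was 0.50 (SE 0.12, 95% interval 0.22 to 0.77), with an unadjusted p of 0.00376 and an adjusted p of 0.638 in edgeR and an adjusted p of 0.0810 in DESeq2. Exons of the opposite-strand transcript Gm45507 share 28.7% of the exon bases of Bnip3, and the strand option of the counting is not given in the sources used here.

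Bnip3l, the relative of Bnip3 that clears mitochondria from red blood cells and lens fibres, did not differ in a single direction. It lies on chromosome 14 (66985239 to 67008877). Its values were 221, 304 and 191 CPM in control and 254, 239 and 239 CPM in CKO, with the highest and the lowest library both in control. The log2 fold change was 0.03 (95% interval -0.37 to 0.43). Of 11 listed red blood cell markers, 6 were tested, with a median log2 fold change of -0.61. The globin genes Hba-a2, Hbb-bs and Hbb-bt had no counts in any library, and Hba-a1 and Ahsp were absent. The markers summed to 399 to 1446 CPM in control and 343 to 472 CPM in CKO, with control replicate 2 highest as for Bnip3l. Their part in the Bnip3l level was not tested. The ratio of Bnip3 to Bnip3l counts was 0.135, 0.105 and 0.168 in control and 0.170, 0.163 and 0.212 in CKO, and the groups overlapped.

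Fundc1, an outer membrane receptor of hypoxic mitophagy on chromosome X (17556564 to 17572325), was slightly higher in CKO. It was at 32.9, 34.7 and 31.8 CPM in control and 35.8, 37.1 and 40.4 CPM in CKO, and the groups did not overlap. Its log2 fold change was 0.19 (SE 0.09, 95% interval -0.02 to 0.40), with an unadjusted p of 0.0664 in edgeR. The interval includes 0.

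The 2 kinases overlapped between the groups. Pink1 lies on chromosome 4 (138313409 to 138326307) and Ulk1 on chromosome 5 (110784488 to 110810097). Pink1, which accumulates on depolarised mitochondria and recruits the ubiquitin ligase parkin, was at 47.2, 48.1 and 52.2 CPM in control and 48.3, 55.5 and 54.2 CPM in CKO. Ulk1, which responds to the nutrient kinases mTOR and AMPK, was at 67.7, 64.3 and 82.7 CPM in control and 71.6, 75.4 and 75.1 CPM in CKO. The highest Ulk1 library was control replicate 3, and the highest Pink1 library was CKO replicate 2. The log2 fold changes were 0.10 for Pink1 (95% interval -0.11 to 0.31) and 0.05 for Ulk1 (95% interval -0.21 to 0.30). The upper bounds correspond to 1.24-fold for both genes.

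**Figure D3:**
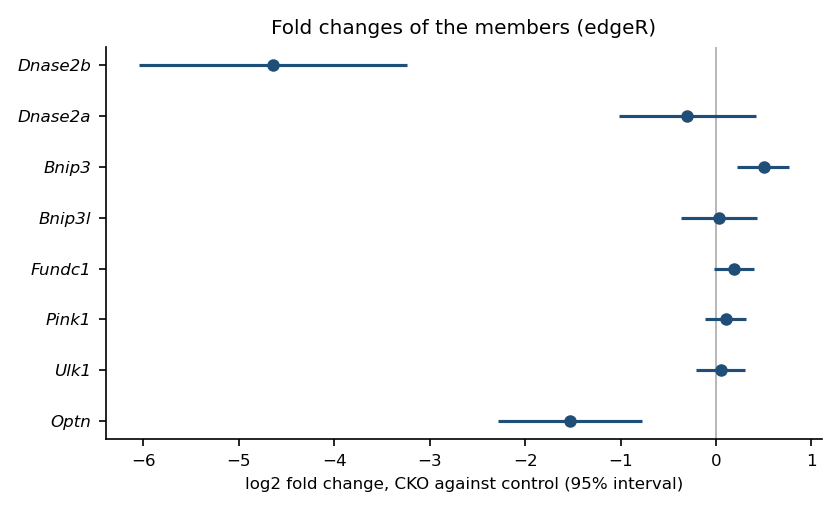
Log2 fold changes of the 8 members, CKO against control, from edgeR's quasi-likelihood fit over all tested genes. Points are estimates and lines 95% intervals, and the intervals of Dnase2b, Optn and Bnip3 do not include 0.

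Per kilobase of exon, the order of the members was led by Bnip3l in both groups. It stood at 73.8 ± 18.0 CPM per kilobase (SD, n = 3) in control and 75.4 ± 2.71 CPM per kilobase (SD, n = 3) in CKO. In control, Pink1 (20.7 ± 1.13), Bnip3 (17.9 ± 0.728), Fundc1 (15.6 ± 0.675), Ulk1 (13.7 ± 1.87) and Optn (13.7 ± 5.84) followed, and Dnase2b (5.34 ± 2.85) and Dnase2a (1.37 ± 0.442) were lowest, all in CPM per kilobase. Among these neighbours the libraries of Bnip3l and Pink1, of Pink1 and Bnip3, of Bnip3 and Fundc1, of Optn and Dnase2b, and of Dnase2b and Dnase2a did not overlap, whereas Ulk1 overlapped with Fundc1, and Optn overlapped with Ulk1. In CKO the order changed at 2 places. Bnip3 (25.2 ± 3.45) stood before Pink1 (22.2 ± 1.61), with overlap, and Dnase2b (0.217 ± 0.130) came last, below Dnase2a (1.11 ± 0.0903), in CPM per kilobase.

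Because the libraries differed in fibre gene content, each member was also set against the mean of 12 lens fibre markers in the same library, 3 of which are in the study's list. For Dnase2b the log2 difference from these markers was -4.14, -4.42 and -4.40 in the control pools, and -6.55, -7.11 and -6.66 in CKO. The control pools, which differed in CPM of Dnase2b, lay close together on this scale, and all CKO pools were lower. The difference between the groups was -2.45 (exact two-sided permutation test, p = 0.1), and it was -2.56 against 16 crystallins. The added offset of 0.5 CPM understates the change of a gene as low as Dnase2b was in CKO.

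Optn behaved differently on the same scale. Its log2 difference from the fibre markers was -2.86, -3.22 and -2.86 in control and -3.31, -3.00 and -3.18 in CKO. The groups overlapped, and their difference was -0.18 (exact two-sided permutation test, p = 0.300). The fibre markers themselves had a median log2 fold change of -1.18, or -0.62 without control replicate 2. Because the reference was lower in CKO, a gene with equal CPM in both groups moves up on this scale. The median of all 12879 genes was a difference of 1.25 (quartiles 1.16 and 1.33), and 85.0% of genes were higher in CKO without overlap, against 0.272% that were lower, as Dnase2b was. The difference of Optn lay below that of 99.7% of genes. The other 6 members were higher without overlap as most genes were, with differences from 1.01 for Dnase2a to 1.72 for Bnip3.

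**Figure D4:**
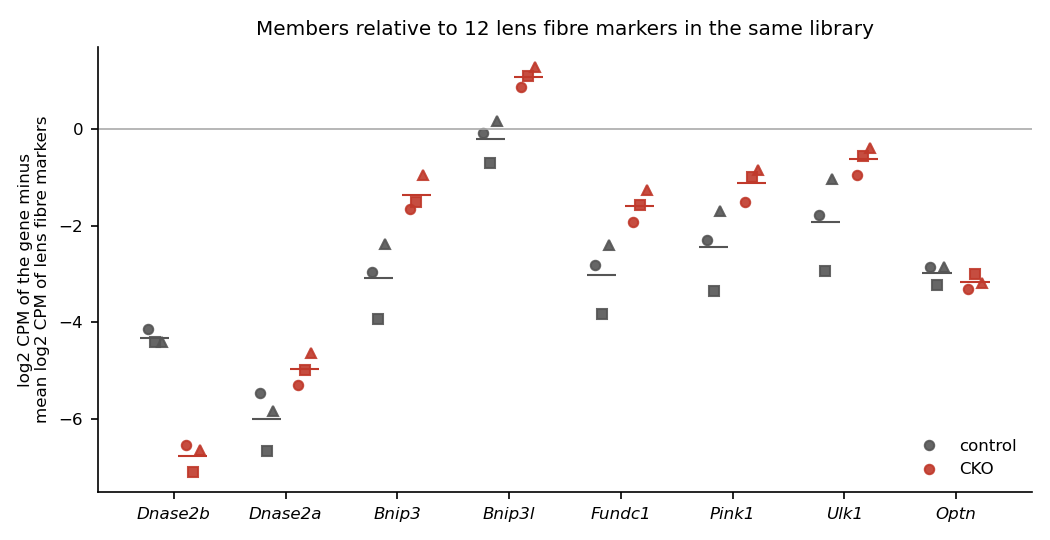
Log2 CPM of each member minus the mean log2 CPM of 12 lens fibre markers in the same library (offset 0.5 CPM), with grey points for control, red points for CKO, lines for group means, and circle, square and triangle for replicates 1, 2 and 3. Dnase2b is lower in CKO by 2.45 and Optn overlaps, whereas the median of all genes is higher by 1.25, and the other 6 members are higher as are 85.0% of genes.

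With the mean log2 level of the fibre markers as a covariate in edgeR, Dnase2b and Optn both stayed lower in CKO. That fit called 0.761% of all genes lower and 2.03% higher at an adjusted p under 0.05. Dnase2b was called lower, with a log2 fold change of -3.25 (adjusted p = 0.00638 in edgeR). Optn was not called, at -0.52 (SE 0.167, unadjusted p = 0.0130 and adjusted p = 0.133 in edgeR). At an unadjusted p under 0.05, 10.9% of all genes were lower in that fit. Bnip3l was called higher, at 0.56 (adjusted p = 0.0212 in edgeR). With the retina and mesenchyme markers as covariates, 1.82% of genes were called lower and 1.62% higher. In that fit Dnase2b (-4.28) and Optn (-1.26) were called lower and Bnip3 (0.50) higher. Both fits leave few degrees of freedom among 6 libraries. The fibre covariate itself did not overlap between the groups, at a mean log2 CPM of 7.41 to 8.95 in control and 6.62 to 7.11 in CKO. Group and covariate are therefore partly confounded in that fit, and its fold changes and calls are not effects freed of fibre content.

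The genes whose profile over the 6 libraries was closest to that of Dnase2b, by the root mean square difference of centred log2 CPM among 12793 genes, were Nlrc5 (0.33), Myo7b (0.41), Plekhs1 (0.42), Crygf (0.42) and Birc7 (0.50). Nlrc5 was at 12.5, 28.6 and 10.4 CPM in control and 0.713, 0.153 and 0.208 CPM in CKO, and Crygf, a gamma crystallin of fibre cells, was at 1826, 4834 and 1309 CPM in control and 337, 202 and 106 CPM in CKO. The profiles of Dnase2b and Optn differed by 1.17 on this measure, which placed Optn 43rd of the 12793 genes as seen from Dnase2b but Dnase2b 12382nd as seen from Optn. The closest profiles to Optn were those of Bfsp2 (0.10), which encodes a beaded filament protein of lens fibres, Snhg12 (0.11), Hopx (0.13), Slc46a3 (0.14) and Ggct (0.15). All of these but Crygf are in the study's list, which comes from these same libraries. The measure includes the difference between the groups, so genes with a like difference rank first by construction. The nearest tested genes on either side had small log2 fold changes, that of Ccdc3 with a wide interval. Beside Dnase2b on chromosome 3 (146580985 to 146615596), Rpf1 had a log2 fold change of -0.11 and Prkacb of -0.04. Beside Optn, Mcm10 and Ccdc3 both had 0.00, and the groups overlapped for all 4 neighbours.

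In the fit without covariates, few genes of the machinery around the members had a low p. Among 40 lysosomal enzymes and membrane proteins, 1 was lower and 0 higher at an unadjusted p under 0.05 in edgeR, beside 2.24% and 1.30% of all genes. Their median log2 fold change was -0.04 against 0.00 for all genes tested. Of 16 vacuolar proton pump subunits, which acidify the compartment in which acid DNases work, 1 was lower, Atp6v1b2 at -0.27, and the median was 0.01. Of 12 other nucleases, 1 was lower, the exonuclease Trex1 at -0.48, and the median was -0.05. With the fibre markers as a covariate, 2 of the 40 lysosomal genes were lower and 16 higher at an unadjusted p under 0.05 (median 0.29), and 0 of the 16 pump subunits were lower and 5 higher (median 0.16), while 10.9% of all genes were lower and 9.46% higher in that fit (median 0.00).

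For the partners of the mitochondrial receptors, the counts in the fit without covariates were as low. Of 23 other mitophagy and mitochondrial dynamics genes, 14 other selective autophagy receptors, 20 autophagy initiation genes and 13 markers of mitochondrial mass, 0 had an unadjusted p under 0.05 in either direction in edgeR, and DESeq2 called 0 of them after adjustment. The medians of these lists were -0.05, -0.06, -0.03 and -0.06. Of all genes tested, 2.24% were lower and 1.30% higher at that threshold in edgeR, and DESeq2 called 0.435% lower. In lists this short, counts of 0 lie near these shares. Among the 16 Atg8 proteins and their conjugation enzymes, Gabarapl1 was lower at -0.36 and Atg4d higher at 0.23, both with an unadjusted p under 0.05.

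The autophagy signalling regulators held more genes with lower values. Of 18 tested, 4 were lower and 0 higher at an unadjusted p under 0.05 in edgeR, beside 2.24% and 1.30% of all genes. The median was -0.06. Without control replicate 2, 4 were lower and 2 higher, beside 2.47% and 3.80% of all genes. Tsc2, which restrains mTOR, was at 302, 506 and 249 CPM in control and 190.2, 177 and 142 CPM in CKO, a log2 fold change of -1.05. Prkab2, a subunit of AMPK, was at 66.4, 102 and 56.9 CPM in control and 36.5, 42.5 and 31.8 CPM in CKO, a log2 fold change of -1.02. The kinase Mtor had a log2 fold change of -0.64, and Tfeb, the transcription factor of lysosomal genes, was at 4.75, 9.23 and 5.53 CPM in control and 3.50, 3.25 and 3.33 CPM in CKO (-0.95). In each of the 4 the groups did not overlap and control replicate 2 was highest. Without that library the log2 fold changes were -0.69 for Tsc2, -0.73 for Prkab2, -0.42 for Mtor and -0.60 for Tfeb. Tsc2 and Prkab2 are in the study's list and were called by DESeq2 (adjusted p = 0.0158 and 0.00722). With the fibre markers as a covariate, 0 of the 18 were lower and 4 higher at an unadjusted p under 0.05, where 10.9% of all genes were lower and 9.46% higher.

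Among the PLAAT phospholipases, which open organelle membranes in lens cells, Pla2g16 was lower. It was at 181, 365 and 131 CPM in control and 93.8, 70.6 and 66.3 CPM in CKO, a log2 fold change of -1.55 (adjusted p = 0.755 in edgeR and 0.00265 in DESeq2), and it is in the study's list. With the fibre markers as a covariate it was at -0.24, and without control replicate 2 at -1.01. Of 17 regulators of denucleation, 2 were lower and 0 higher at an unadjusted p under 0.05, beside 2.24% and 1.30% of all genes. Without control replicate 2 these numbers were 1 and 3, beside 2.47% and 3.80% of all genes. Hsf4, a heat shock factor that controls Dnase2b in the lens, was at 61.3, 129.9 and 50.8 CPM in control and 41.8, 36.2 and 31.3 CPM in CKO, without overlap. The log2 fold change of Hsf4 was -1.15, or 0.07 with the fibre markers as a covariate. Tdrd7, an RNA granule protein of lens fibres, was at -1.10, and its groups overlapped. Without control replicate 2, Hsf4 was at -0.61 and Tdrd7 at -0.54, and with the fibre covariate Tdrd7 was at 0.31.

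The hypoxia response genes, to which Bnip3 belongs by its known regulation, held more genes with higher values. Of 22 tested, 4 were higher and 1 lower at an unadjusted p under 0.05 in edgeR, beside 1.30% and 2.24% of all genes. Without overlap, 5 were higher and 1 lower, beside 3.67% and 4.69%, and the median log2 fold change was 0.14. With the fibre markers as a covariate, 4 were higher and 1 lower at an unadjusted p under 0.05, beside 9.46% and 10.9%. Pdk1, a kinase that limits pyruvate use in mitochondria, was at 72.4, 69.7 and 79.3 CPM in control and 87.4, 93.6 and 124 CPM in CKO (0.46). Pfkfb3, an activator of glycolysis, was at 0.33. The gene with the lowest value was Ndrg1, at -0.78, which is in the study's list. Without control replicate 1 and CKO replicate 2, the pools rich in mesenchyme markers, 1 of the 22 was higher at that threshold, as were 0.445% of all genes, and without control replicate 2 there were 7, beside 3.80% of all genes. In the former fit Bnip3 was at 0.56.

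**Figure D5:**
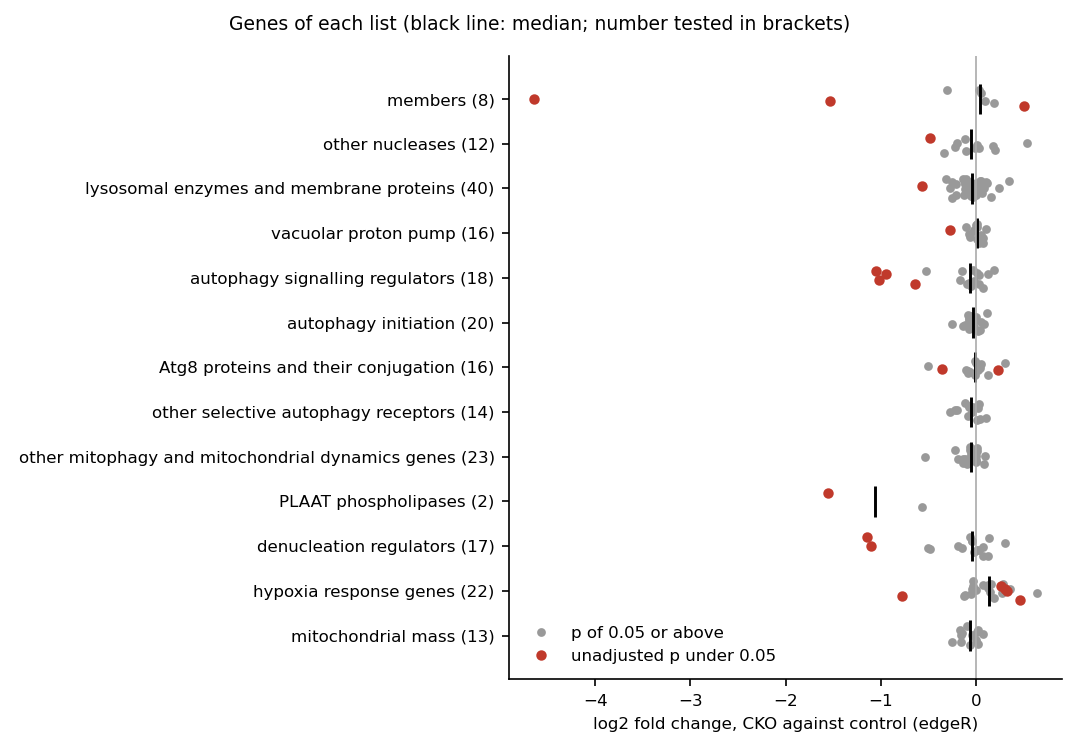
Log2 fold changes of the members and of the genes of 12 lists, CKO against control, one point per gene. Red points have an unadjusted p under 0.05 in edgeR, black lines are list medians, and the number tested is in brackets. The medians lie between -0.06 and 0.14 except that of the 2 PLAAT phospholipases at -1.06, and Dnase2b is the lowest point at -4.64.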

How the data were processed

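RNA-Seq of 6 libraries was analysed. Per the labels and the study's methods, the authors trimmed stranded polyA reads with Trim Galore, aligned them to mm10 with TopHat2 2.0.13, counted fragments per RefSeq gene with HTSeq 0.6.1, and deposited raw counts of genes whose mean Cuffdiff 2.2.1 FPKM passed 1 in control or CKO. The options for strand and overlap are not given in the sources used here. The labels do not say that pools were made or sequenced in separate batches. CKO replicates 1, 2 and 3 follow the sample titles.

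The robust quasi-likelihood test of edgeR 4.0.16, run in R 4.3.3 with TMM factors, covered 12879 genes that reached 10 counts in 3 or more libraries, with Benjamini-Hochberg adjustment at 0.05. Exact permutation tests used log2(CPM + 0.5), except that of the Dnase2b to Dnase2a ratio, which used the log2 count ratio without an offset. Alternatives used DESeq2 1.42.0, limma 3.58.1 voom, other scalings, filters, covariates, a replicate block and each library left out. A fit without the 2 mesenchyme-rich pools was added after seeing the data. The tests were tried on simulated data. With 3 pools a group, precision is limited by the spread between pools, and by depth only for low counts. The study calls pools replicates, so p-values measure the spread between pools.

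Gene positions and exon lengths came from GENCODE M21 (GRCm38, the assembly of mm10), lengths from its transcripts paired with RefSeq. In each list, named genes are those with an unadjusted p under 0.05, at most 4, and the lowest and highest fold changes, from which a part is printed, and 1 gene of a list is not reported here. The others named are the 5 closest profiles, the nearest neighbours and Gata3. The members and lists were chosen with earlier results of these data known. Other measurements of the study were not analysed here. Plots were made with Python 3.11.15, pandas 2.3.3 and matplotlib 3.10.9.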

Additional observations from a re-analysis of the deposited data

How the results depend on the processing

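Each member was refitted under 18 alternatives. Dnase2b and Optn were lower and Bnip3 and Fundc1 higher in all of them, while the signs of Dnase2a, Bnip3l, Pink1 and Ulk1 depended on the setting. DESeq2 gave -4.65 for Dnase2b and -1.53 for Optn, and with a prior on fold changes -0.74 and -0.63. With the lens fibre markers as a covariate the log2 fold change was -3.25 for Dnase2b, 0.56 for Bnip3l, 0.11 for Dnase2a, -0.00857 for Pink1 and -0.20 for Ulk1. With the retina and mesenchyme markers as covariates it was -4.28 for Dnase2b, -1.26 for Optn and 0.50 for Bnip3. Leaving out each library in turn gave -5.19 to -4.15 for Dnase2b, -1.77 to -1.14 for Optn, 0.39 to 0.58 for Bnip3, -0.11 to 0.25 for Bnip3l and -0.00941 to 0.17 for Ulk1. Bnip3l was -0.00671 without control replicate 1, -0.11 without control replicate 3 and -2.39e-05 without CKO replicate 1, and Ulk1 was -0.00941 without control replicate 2.

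Genes called lower numbered 0 in edgeR, 56 in DESeq2, 50 with the prior, 98 with the fibre covariate and 235 with the retina and mesenchyme covariates. Genes called higher numbered 0, 29, 29, 262 and 209 in the same order, 1 with library totals only and 0 to 1 with each library left out (1 without control replicate 3). At an unadjusted p under 0.05, 457 genes became 2623 and 1438 with these covariates, 271 to 1234 with each library left out (806 without control replicate 2, 1234 without control replicate 3, 271 without CKO replicate 3), and 173 without both mesenchyme-rich pools. The causes were not tested.

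Replicate numbers did not pair the samples, since same-numbered control and CKO libraries deviated together with correlations of -0.507, 0.09 and 0.484. With the replicate block, Dnase2b was at -4.56, Optn at -1.46, and 0 genes were called.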
